A study of Mus musculus with 12 samples.

Results

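Among CD11c-selected cells of PyMT breast tumors, 253 of 11639 (2.17%, 95% CI 1.92 to 2.46) carried at least 2 transcripts of *Ly6c2* together with at least 1 of *Csf1r*, and these Ly6c2 Csf1r cells are described here. A cell was a member if it had at least 200 detected genes, at least 2 UMIs of *Ly6c2*, at least 1 of *Csf1r*, none of the T cell gene *Cd3e* or the plasmacytoid dendritic cell (pDC) gene *Siglech*, and at most 3 UMIs of *S100a8* and *S100a9*, the neutrophil alarmins in sum. A unique molecular identifier (UMI) tags 1 captured mRNA molecule, and each is counted once however often it was read. The cells were thus selected on the measured counts of these 6 genes, which are given only as a description. *Ly6c2* encodes the surface protein Ly6C of inflammatory monocytes, and *Csf1r* the receptor for macrophage colony stimulating factor.

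Classical monocytes leave the bone marrow with high Ly6C and the chemokine receptor CCR2, enter inflamed tissue and tumors, and differentiate there into macrophages or monocyte-derived DCs. Ly6C and other monocyte transcripts are lost along this path, while complement C1q, apolipoprotein E and lysosomal genes of the macrophage are gained. Monocytes also respond strongly to interferon, and both monocytes and macrophages can make coagulation factor X, the product of *F10*.

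The mice carried the polyoma middle T oncogene (PyMT) under the MMTV promoter, which drives it in the mammary epithelium, and all developed tumors spontaneously without further treatment. One genotype was wild-type for protease activated receptor 2 (PyMT-PAR2WT), and the other carried the PAR2 G37I mutant, which resists signaling by factor Xa (PyMT-PAR2G37I). Cells were selected with CD11c beads, stored frozen, and run after thawing on a 10x Genomics instrument, in 3 samples of each genotype, with the same number of samples for CD4/CD8-selected cells. Per the paper, the CD11c selection used late-stage tumors and the CD4/CD8 selection mid-size tumors. The 6 CD11c-selected samples were deposited as 1 matrix whose barcodes name no sample, so genotypes could not be compared, the depth per sample is unknown, and no value has a replicate error or a p-value. Animal ages are not given in the labels.

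The barcodes of the matrix ran through the alphabet 6 times, and these barcode runs, which were linked to no sample, were used only to show how values vary. The runs held 37, 79, 30, 3, 60 and 44 Ly6c2 Csf1r cells, between 0.833% and 2.84% of the cells of a run. The fourth run, with 3 of them, was left out where values are given by run, which left 5 runs with at least 20 members. Barcodes that occurred more than once numbered 76, of which 2 belonged to members. The Ly6c2 Csf1r cells had a median of 9731 UMIs per cell and 2862156 UMIs in all, with a median mitochondrial share of 2.90%. Levels are UMIs summed over the cells of a group per 1000000 UMIs of that group (CPM), with exact 95% Poisson intervals, which cover counting error only.

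*Ly6c2* was at 2 or more UMIs in 349 cells, of which 84 lacked *Csf1r*, 2 exceeded the limit on *S100a8* and *S100a9*, and 10 carried *Siglech*. The threshold cut through a continuous range, with 54 members at exactly 2 UMIs of *Ly6c2* and 179 cells just outside it at 1 UMI. Between these groups 15 of 3732 genes were at least 2-fold higher just inside (0.402%) and 20 lower (0.536%), with *Plac8* at 735 CPM inside and 437 outside, *C1qc* at 1151 and 1501, and *Irf7* at 212 and 281. The median member had 4 UMIs of *Ly6c2*, 58 had 10 or more, and the highest had 43. *Ly6c2* lies at chr15:75108158-75111970 on the minus strand of GRCm38, in a cluster with its paralog *Ly6c1* at chr15:75044018-75048830. Of 2631 windows of 50 bases in its longest transcript, 331 (12.6%) also occur in *Ly6c1*, and of the 351 windows in its last 400 bases 85 (24.2%), so part of the reads of these 2 genes could be exchanged. *Ly6c1*, known from endothelial and T cells, was at 10.5 CPM in members, with 63.3% of its UMIs in 1 cell.

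The members were compared with 2 groups of the same matrix. The 5982 C1qa cells (51.4% of the matrix, median 9321 UMIs) had *Csf1r*, at least 3 UMIs of the complement gene *C1qa* and no *Ly6c2*, the profile of tumor macrophages. The 743 Ccr2 cells (6.38%, median 15325 UMIs) had *Csf1r*, at least 2 UMIs of *Ccr2*, at most 2 of *C1qa* and no *Ly6c2*. A gene was compared if it had at least 100 UMIs over both groups, and a gene was called higher or lower at a fold of 2 or more, computed with 1 UMI added to each sum. The genes of the rule were left out of these counts.

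The name monocyte held only in part. *Plac8*, *Ccr2* and *Ms4a4c* marked most members, but 164 of them (64.8%, CI 58.6 to 70.7) also carried *C1qa* at 3 or more UMIs, the level that defined the C1qa cells. Only 70 members (27.7%) had no *C1qa*, and 19 (7.51%) had 1 or 2 UMIs. In the 5 runs the share with 3 or more UMIs lay between 53.3% and 70%, so the mixture was present in each. The median *Ly6c2* count was 4, 4 and 5 UMIs from the lowest to the highest *C1qa* tier, and the median depth was 7669, 10661 and 10742 UMIs. Doublets were not removed, and their part in the cells with both transcripts was not tested. The cells are therefore called Ly6c2 Csf1r cells below.

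Against C1qa cells, 277 of 10866 genes were at least 2-fold higher in Ly6c2 Csf1r cells (2.55%) and 775 at least 2-fold lower (7.13%), with a median log2 fold of -0.00 over all genes compared. Genes at least 2-fold higher that were also higher in each of the 5 runs numbered 136 (1.25%), and for genes lower the number was 580 (5.34%). Of the lists described here, 7 of 13 classical monocyte genes and 13 of 38 interferon-induced genes were higher. Lower were 6 of 17 macrophage genes, a direction that the choice of the C1qa cells by *C1qa* favors.

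*Plac8*, a small cysteine-rich protein gene that is strong in blood monocytes, was at 804 CPM (CI 771 to 837) in Ly6c2 Csf1r cells and at 42.0 in C1qa cells, a 19.1-fold difference (CI 18.1 to 20.2). Its levels in the 5 runs were 1310, 989, 877, 463 and 832 CPM in members and between 32.7 and 55.3 in C1qa cells. The groups did not overlap, and the fifth run was the lowest. *Ms4a4c*, a 4-transmembrane gene of monocytes, was at 503 CPM (CI 477 to 530) against 79.9, and its members' range over runs of 413 to 634 also lay clear of the C1qa cells' 70.7 to 97.9. *Chil3*, encoding the chitinase-like protein Ym1, had the highest fold of the genes detected in at least 25% of members, 43.5 (CI 35.4 to 54.0), from 87.3 CPM against 2.00. It was found in 27.7% of members and 1.19% of C1qa cells.

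When each cell was thinned to 2000 UMIs, which left out 7 members and 518 C1qa cells, *Plac8* was seen in 49.2% of members (CI 42.8 to 55.6) and 5.29% of C1qa cells, *Ms4a4c* in 50.8% and 12.9%, and *Ccr2* in 43.5% and 24.7%. As a reading of free RNA, the macrophage gene *C1qb* was seen at this depth in 8% of 50 T cells of the matrix, against 66.3% of members. These T cells had *Cd3e* and other T cell receptor complex genes and neither *Csf1r* nor *C1qa*, so their *C1qb* share could be an underestimate, and their median depth was 4728.5 UMIs against 9731 in members. *Chil3*, *Thbs1* and *F10* were seen in 0 of these 50 T cells, which allows a share of up to 6%. Other genes high in members were seen in them, *Plac8* in 28%, *Isg15* in 26%, *Ccr2* in 12% and *Itgb7* in 32%. Whether T cells make these transcripts or took them up as free RNA was not tested.

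**Figure D1:**
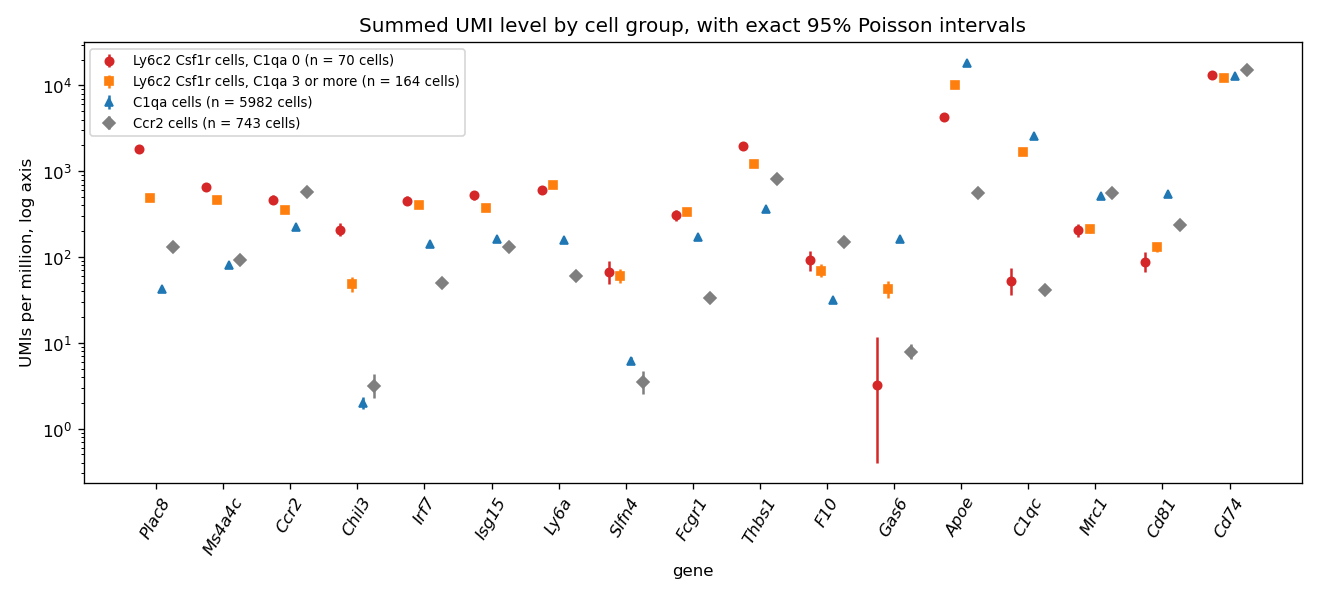
Level in CPM (log axis) of 17 genes in Ly6c2 Csf1r cells with no *C1qa* (red circles), in those with at least 3 UMIs of *C1qa* (orange squares), in C1qa cells (blue triangles) and in Ccr2 cells (gray diamonds); bars are exact 95% Poisson intervals. *Plac8* and *Chil3* fall from the first to the third group, *Irf7* and *Slfn4* have overlapping intervals in both member groups and are lower in the others, and *C1qc* rises from 52.2 to 1665 and 2601 CPM.

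Of 14 genes listed as classical monocyte genes, 13 were compared, of which 7 were higher (*Plac8*, *Chil3*, *Ms4a4c*, *Vcan*, *Hp*, *S100a4*, *Ifitm6*), 1 was lower (*F13a1*) and 5 lay within 2-fold, with a median log2 fold of 1.06. *Ccr2*, the receptor that draws monocytes to tissue, was at 366 CPM (CI 344 to 389) against 222, less than a 2-fold difference. It was higher in each of the 5 runs, but the runs' levels overlapped between the groups. *Vcan*, the proteoglycan versican, had 36.6% of its UMIs in 1 member. *F13a1*, encoding the coagulation factor XIII A chain, was at 140 CPM against 295, and *Lyz2*, encoding lysozyme, at 6116 against 8859.

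Nonclassical monocyte genes did not follow when all members were set against C1qa cells. Of 12 listed, 10 were compared, with 1 higher (*Fabp4*), 2 lower (*Cx3cr1*, *Ear2*) and a median log2 fold of -0.00. *Cx3cr1*, the fractalkine receptor, was at 68.1 CPM against 147 and was lower in all 5 runs. The fatty acid-binding protein gene *Fabp4* had 76.4% of its UMIs in a single member. In members with no *C1qa*, 2 of the 10 were higher (*Treml4* and *Adgre4*, with 10 and 14 UMIs) and 2 lower, with a median log2 fold of 0.37. In that comparison 7.71% of all genes were higher and 10.3% lower. Among 10 genes of monocyte-derived and type 2 DCs, 4 were higher in all members, namely *Cd209a*, *Flt3*, *Dpp4* and *Cd7*, and *Irf4* was lower. With all members against C1qa cells, 2.55% of all genes were higher and 7.13% lower. *Cd209a*, encoding the lectin DC-SIGN, was at 78.3 CPM against 29.7 and was found in 8.70% of members. The 10 MHC class II genes all lay within 2-fold, and *Cd74*, the invariant chain, was at 12398 CPM against 12883.

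Macrophage genes were lower as a group, although none was absent. Of 17 listed and compared, 6 were at least 2-fold lower (*C1qc*, *Apoe*, *Mrc1*, *Pf4*, *Cd63*, *Cd81*) and none was 2-fold higher, with a median log2 fold of -0.74. The C1qa cells were chosen by *C1qa* and the members were not, which favors lower macrophage genes in members. The differences of this list are therefore given as a description. *C1qb* and *C1qc* belong to the same complex as the gene that chose the C1qa cells. *Apoe*, the lipid carrier, was at 8667 CPM against 18506. *Cd81*, a tetraspanin, was at 112 CPM (CI 100 to 125) against 537, a 4.78-fold difference, with 65.8 to 146 over the runs of members and 435 to 571 over those of C1qa cells. *Mrc1*, the mannose receptor CD206, was at 193 CPM against 513. Going the other way, *Fcgr1*, encoding the Fc receptor CD64 of monocytes and macrophages, was at 319 CPM (CI 299 to 341) against 169 and higher in all 5 runs, with a fold of 1.89.

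The lowest genes relative to C1qa cells, among those detected in at least 25% of the C1qa cells, were *Ptgs1*, *Vcam1*, *Fcrls*, *Cadm1*, *Gas6*, *Lilra5*, *Tnfsf13b*, *Cd81*, *Ccl8*, *Tanc2*, *Pmp22*, *Serpinb6a*, *Mt2*, *C4b* and *Igf1*, all lower in each of the 5 runs. They were ranked on sums over the same runs, which favors this agreement, so it is given as a description. Of the 775 genes at least 2-fold lower, 580 were lower in each run. *Ptgs1*, which encodes cyclooxygenase-1, was at 3.84 CPM (CI 1.92 to 6.88) against 48.6, the strongest difference, 11.6-fold. *Vcam1*, a cell adhesion molecule, was 7.15-fold lower and *Fcrls*, an Fc receptor-like gene, 6.27-fold lower. Counts of *C4b* could include reads of its near copy *C4a*. In the list of Fc and phagocytic receptors, whose median log2 fold was -0.05, 4 of 21 genes were lower (*Fcgrt*, *Cd163*, *Lyve1*, *Tlr4*) and 1 higher (*Clec4e*). Of all genes compared, 7.13% were lower and 2.55% higher. The scavenger receptor gene *Cd163* was at 3.84 CPM against 29.4, and *Lyve1*, a hyaluronan receptor gene, was at 0 in members, which allows up to 1.05 CPM, against 31.5. 

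The 15 highest genes detected in at least 25% of members were *Chil3*, *Plac8*, *Slfn4*, *B3gnt5*, *Ms4a4c*, *Mefv*, *Ly6a*, *Itgb7*, *Thbs1*, *Ifi205*, *Sgms2*, *Irf7*, *Uck2*, *Spon1* and *Arg2*, with folds from 43.5 down to 2.76. All but *Arg2* were higher in each of the 5 runs, an agreement that the ranking on sums over the same runs favors. Of the 277 genes at least 2-fold higher, 136 were higher in each run. *Mefv*, encoding the inflammasome protein pyrin, was at 103 CPM against 24.7. *Itgb7*, an integrin chain, was at 73.7 against 19.1. The glycosyltransferase gene *B3gnt5* was at 45.4 CPM against 7.08. 

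**Figure D2:**
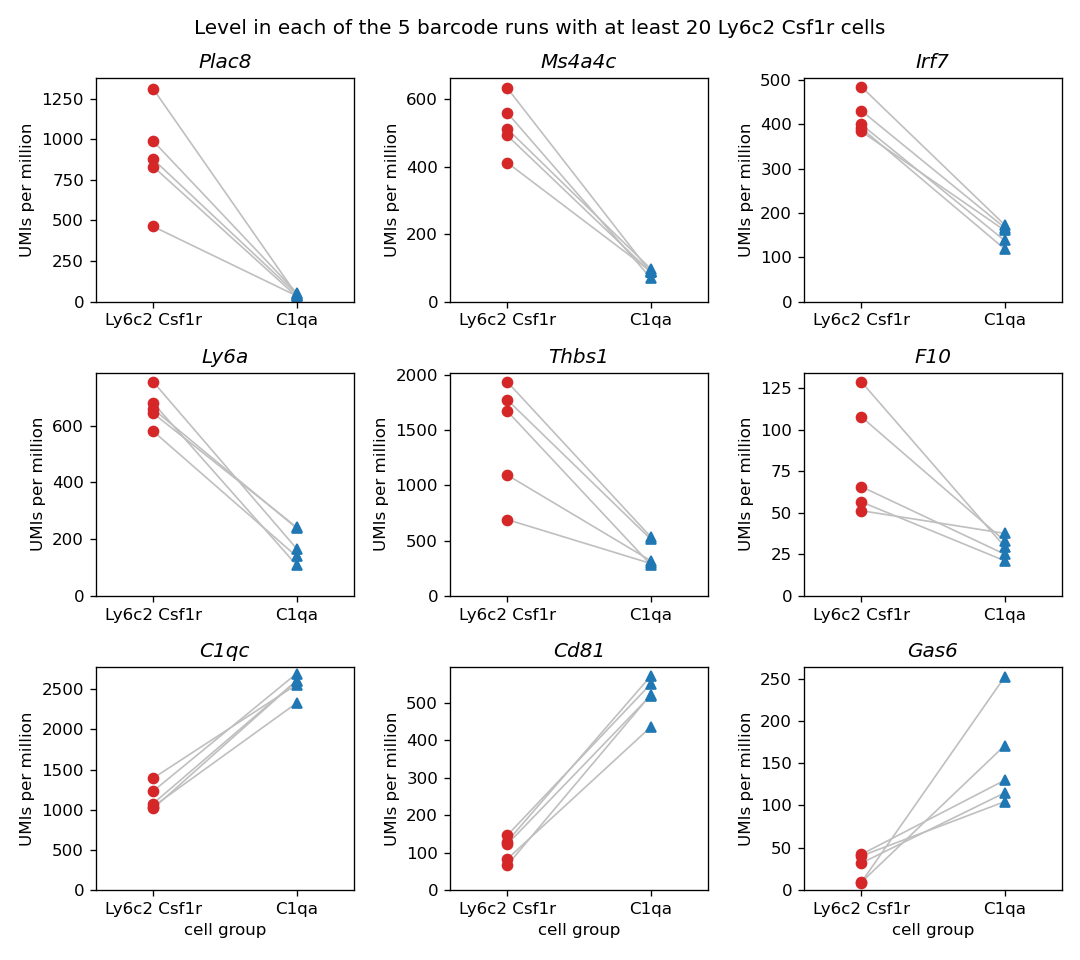
Level in CPM (linear axes from 0) of 9 genes in Ly6c2 Csf1r cells (red circles) and C1qa cells (blue triangles) in each of the 5 barcode runs with at least 20 members; gray lines join the same run. No panel has overlapping groups, and *Gas6*, *Plac8*, *Thbs1* and *F10* vary most among the runs of members, with *F10* between 51.3 and 129 CPM in members.

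Of 39 listed interferon-induced genes, 38 were compared, 13 were at least 2-fold higher (*Slfn4*, *Isg20*, *Ly6a*, *Ifi205*, *Slfn1*, *Irf7*, *Isg15*, *Zbp1*, *Ifi209*, *Phf11a*, *Ifit1bl1*, *Ifi208*, *Igtp*), none was 2-fold lower, and 34 lay above a log2 fold of 0, with a median of 0.70. Those higher in each of the 5 runs, at any fold, numbered 17, and 2 were lower in each. The share of all genes that meet this condition is not given here, so these counts have no background. The count of 13 stands against the background of 2.55% of all genes higher. *Ifi208*, with 8 UMIs in members, and *Mid1*, which lay within 2-fold, differed among runs in both groups.

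*Irf7*, encoding the transcription factor that amplifies type I interferon expression, was at 407 CPM (CI 384 to 431) in members and at 142 in C1qa cells, a 2.88-fold difference. Its levels in the 5 runs were 384, 400, 485, 431 and 392 CPM in members and 161, 138, 173, 167 and 119 in C1qa cells. These levels were even among runs and did not overlap. *Isg15*, a ubiquitin-like modifier, was at 412 CPM (CI 388 to 436) against 163, and its levels ran from 206 to 565 over the runs of members and from 153 to 199 over those of C1qa cells. *Ly6a*, encoding the surface protein Sca-1, was at 637 CPM (CI 608 to 666) against 157, between 580 and 754 over the runs. *Slfn4*, a Schlafen gene of myeloid cells, was at 65.7 CPM (CI 56.6 to 75.8) against 6.21, a 10.6-fold difference, and *Zbp1*, a nucleic acid sensor, at 161 against 68.1.

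Genes of the antiviral IFIT, OAS and viperin families varied among themselves. *Ifit1*, *Ifit2* and *Ifit3*, whose products bind viral RNA, had log2 folds of 0.43, 0.26 and 0.53, and *Ifit1bl1*, with 13 UMIs in members, had 1.07. *Oas1a* and *Oasl2*, of the oligoadenylate synthetase family, had log2 folds of 0.73 and 0.71. *Rsad2*, encoding viperin, was at 99.9 CPM against 114. *Oasl1* was at 74.8 CPM against 115 and was lower in all 5 runs. *Cxcl10*, the interferon-induced chemokine, was 2.56-fold lower at 84.6 CPM against 217. *Cxcl9* was higher, at 116 against 36.3 CPM, but was found in 11.5% of members, with 23.8% of its UMIs in 1 of them.

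To show where these genes carry the interferon-stimulated response element, their promoters were searched on either strand for its core, GAAA, any 2 bases and GAAA again, within the 250 bases before the start. This core was in 978 of 32851 promoter entries of RefSeq (2.98%, GRCm38.p6) and in 18 of the 31 listed interferon-induced genes with a promoter entry (58.1%). Of the 13 higher genes, 11 had an entry and 6 held the core (54.5%), no greater a share than in the whole list. The core thus did not set the higher genes apart within the list. It was in 0 of 11 classical monocyte genes, 1 of 15 macrophage genes and 308 of 8527 genes compared (3.61%). The stretches of 4 of the 6, those found in the most members, follow in the direction of transcription with the core in capitals. The core of *Isg15* repeats and overlaps itself, 66 to 78 bases before the start, while *Ifi205* has it at 134, *Igtp* at 34 and *Phf11a* at 29 bases before it. They lie at chr4:156200845-156200926 (minus strand), chr1:174031850-174031919 (minus), chr11:58199492-58199555 (plus) and chr14:59297523-59297581 (minus).
Isg15: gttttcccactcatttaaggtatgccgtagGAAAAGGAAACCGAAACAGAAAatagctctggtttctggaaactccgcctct
Ifi205: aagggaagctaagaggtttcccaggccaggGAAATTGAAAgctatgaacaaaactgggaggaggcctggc
Igtp: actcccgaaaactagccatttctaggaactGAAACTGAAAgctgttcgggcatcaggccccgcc
Phf11a: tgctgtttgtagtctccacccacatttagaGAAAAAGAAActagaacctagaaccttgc
A match is a description of these letters and not of a bound site. *Irf7*, *Slfn4*, *Slfn1*, *Isg20* and *Ifi209* were higher with an entry that lacks these letters, and *Ly6a* and *Zbp1* had no entry.

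**Figure D3:**
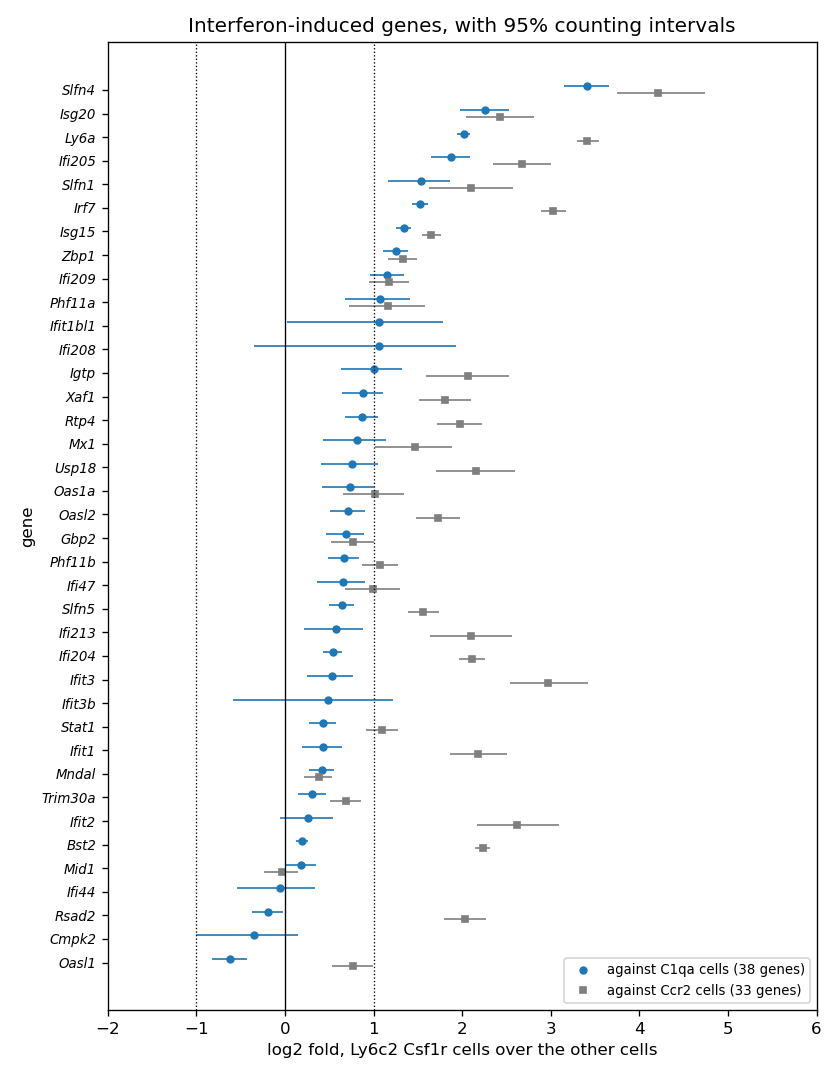
Log2 fold (x axis) of the interferon-induced genes (y axis) in Ly6c2 Csf1r cells over C1qa cells (blue circles, 38 genes) and over Ccr2 cells (gray squares, 33 genes), with 95% counting intervals; dotted lines mark 2-fold. *Slfn4* is highest in both, at 3.41 and 4.21, and *Oasl1* lowest over C1qa cells, at -0.62.

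Sensors upstream of interferon were close between the groups. Of 17 listed genes of nucleic acid sensing 16 were compared, of which 14 lay within 2-fold. *Mb21d1*, encoding cGAS, was at 19.9 CPM against 15.1, and *Tmem173*, encoding STING, at 54.2 against 55.8. *Ifnb1* was called lower on 1 UMI in members, at 0.349 CPM against 3.85 in C1qa cells.

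The coagulation list divided. Of 25 listed genes of coagulation, fibrinolysis and protease-activated receptors 20 were compared, with 2 higher (*F10*, *Thbs1*), 6 lower (*F3*, *F13a1*, *Vkorc1*, *Procr*, *Gas6*, *Plau*) and a median log2 fold of -0.47. Of all genes compared, 2.55% were higher and 7.13% lower. *F10*, at chr8:13037308-13056676 on the plus strand, was at 84.6 CPM (CI 74.2 to 95.9) in members and 31.3 in C1qa cells, 2.71-fold higher (CI 2.35 to 3.08). In the 5 runs its levels were 51.3, 56.6, 65.8, 108 and 129 CPM in members against 37.7, 21.2, 25.2, 33.2 and 29.7 in C1qa cells. The groups did not overlap, the last pair of runs stood above the others, and *F10* was found in 27.3% of members and 10.4% of C1qa cells. After thinning these shares were 10.2% (CI 6.69 to 14.6) and 3.42%.

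*Thbs1*, encoding thrombospondin 1, a matrix protein that activates latent TGFβ, was at 1329 CPM (CI 1287 to 1372) against 362, 3.67-fold higher. Its levels in the runs of members were 1940, 1777, 1095, 691 and 1674 CPM, and all exceeded the 284 to 536 of C1qa cells. *Plaur*, the urokinase receptor, was at 553 CPM against 323 and higher in all 5 runs. *Gas6*, the ligand of the TAM receptors, was at 30.7 CPM (CI 24.7 to 37.9) against 161, *Plau*, encoding urokinase, at 33.2 against 82.0, and *Procr*, the endothelial protein C receptor, at 19.9 against 40.7. *F7*, encoding factor VII, was at 19.6 against 25.5 CPM. *F3*, encoding tissue factor, had 3 UMIs in members, and *F2rl1*, encoding PAR2, had 1.

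Platelet transcripts were near 0. Of 12 platelet genes only 2 had enough UMIs to be compared, 5 were at 0 in members, and *Itga2b*, encoding CD41, had 3 UMIs or 1.05 CPM. *Pf4*, which macrophages also express, was at 193 CPM against 474 in C1qa cells, and it rested for 20.8% of its UMIs on 1 member.

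Of 15 TGFβ genes 11 were compared and 1 was higher (2.55% of all genes). *Lrrc32*, encoding GARP, was at 13.6 CPM against 4.63, with 43.6% of its UMIs in 1 member. *Tgfb1* was at 292 CPM against 239 and higher in all 5 runs. The receptor genes *Tgfbr1*, at 81.1 against 161, and *Tgfbr2*, at 68.5 against 122, were lower in all 5. Among 15 compared genes of immune suppression and checkpoints 2 were higher (2.55% of all genes) and 1 lower (7.13% of all genes). *Cd274*, encoding PD-L1, was at 64.3 CPM against 37, and *Arg1* at 186 against 107 but at 1.62 to 506 over the runs of members.

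Of 26 chemokine and cytokine genes compared 9 were at least 2-fold lower (7.13% of all genes) and 3 higher (2.55% of all genes), with a median log2 fold of -0.42. The chemokine genes *Ccl3* and *Ccl4* were 2.83-fold and 3.00-fold lower, and *Tnf* was at 91.5 CPM against 213. *Ccl8*, another chemokine gene, was at 370 CPM against 1765, and 47.9% of its UMIs in members came from 1 cell. *Ccl5* was higher, at 301 CPM against 113. *Il1b* was at 2592 CPM against 1588, with 2390.5 to 3050 over the runs of members and 1328 to 2072 over those of C1qa cells, and *Vegfa* at 335 against 181. The count of *Il6* among the higher genes rested on 1 cell with 80.3% of its UMIs.

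Among 28 transcription factor genes compared, none was 2-fold higher and 4 were lower (*Irf4*, *Maf*, *Bhlhe41*, *Egr1*). *Cebpb*, of myeloid differentiation, was at 1851 CPM against 1197, *Hif1a* at 220 against 134, and *Runx3* at 355 against 211, each higher in all 5 runs. Of 19 trafficking and adhesion genes 2 were higher, *Itgb7* and *Gpr35*. S100 and cytoskeletal genes had a median log2 fold of 0.38, with 3 of 18 higher, and *S100a6*, a calcium-binding protein gene, was at 1388 CPM against 589. Glycolysis and hypoxia genes all lay within 2-fold (21 compared, median log2 fold 0.11). Lysosomal genes had a median of -0.27 with 19 of 22 below 0 and 1 called, *Atp6v0d2*. Of 10 cycling genes 5 were lower and none higher, with *Mki67* at 24.1 CPM against 66.0. Of 10 stress genes 2 were lower, *Hspa1a* and *Hspa1b*. The counts of these lists stand against 2.55% of all genes higher and 7.13% lower.

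Between the 70 members with no *C1qa* and the 164 with at least 3 UMIs, 40 of 3597 genes were at least 2-fold higher (1.11%) and 85 at least 2-fold lower (2.36%), with a median log2 fold of 0.04. *C1qb* and *C1qc* moved with *C1qa*, at 104 against 3194 and at 52.2 against 1665 CPM. Of 16 macrophage genes compared 11 were lower without *C1qa*, a direction that the split on *C1qa* favors, with a median log2 fold of -1.62. Among them were *Apoe* (4322 against 10222 CPM), *Cd63* (194 against 704) and the osteopontin gene *Spp1* (860 against 4961). The other 5 lay within 2-fold, all below a log2 fold of 0. They were *Mrc1* (204 against 210 CPM), *Fcgr1* (307 against 333), *Cd81* (88.1 against 129), *Cd68* (439 against 614) and *Adgre1* (124 against 249).

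*Plac8* fell from 1826 CPM (CI 1720 to 1936) in members with no *C1qa* through 837 (CI 723 to 964) in the middle tier to 489 (CI 459 to 521) at the highest, still above the 42.0 of C1qa cells. *Chil3* was at 209, 108 and 48.1 CPM in the same order, and *Hp*, encoding haptoglobin, at 131, 17.4 and 14.4. Of 10 classical monocyte genes compared 3 were higher without *C1qa* (1.11% of all genes), with a median log2 fold of 0.45. The DC genes *Cd209a* and *Clec10a* were also higher there, *Cd209a* at 210.5 CPM.

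*Irf7* was at 455, 356 and 399 CPM over the 3 tiers and *Slfn4* at 66.9, 108 and 60.4, with overlapping intervals between the lowest and the highest tier. Of 25 interferon-induced genes compared between them 1, *Ifi205*, differed by 2-fold, while 21 lay above a log2 fold of 0 without *C1qa*, with a median of 0.36. Set against C1qa cells, 22 of 38 interferon-induced genes were at least 2-fold higher in members with no *C1qa* (median log2 fold 1.10, background 7.71%) and 10 of 38 in members with at least 3 UMIs of it (median 0.63, background 2.65%). In the same comparisons 15 of 17 macrophage genes were lower in the first (background 10.3%) and 3 of 17 in the second (background 6.27%). The choice of these groups by *C1qa* favors this difference, which is given as a description. *C1qb* and *C1qc* were among the 15. *F10* was at 91.4 CPM (CI 69.0 to 119), 200 (CI 146 to 266) and 69.4 (CI 58.3 to 81.8). The middle tier was the highest, but it held 19 cells, and 1 of them gave 19 of its 46 UMIs. *Thbs1* was at 1958, 781 and 1200 CPM, and *Fcgr1* at 307, 234 and 333.

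**Figure D4:**
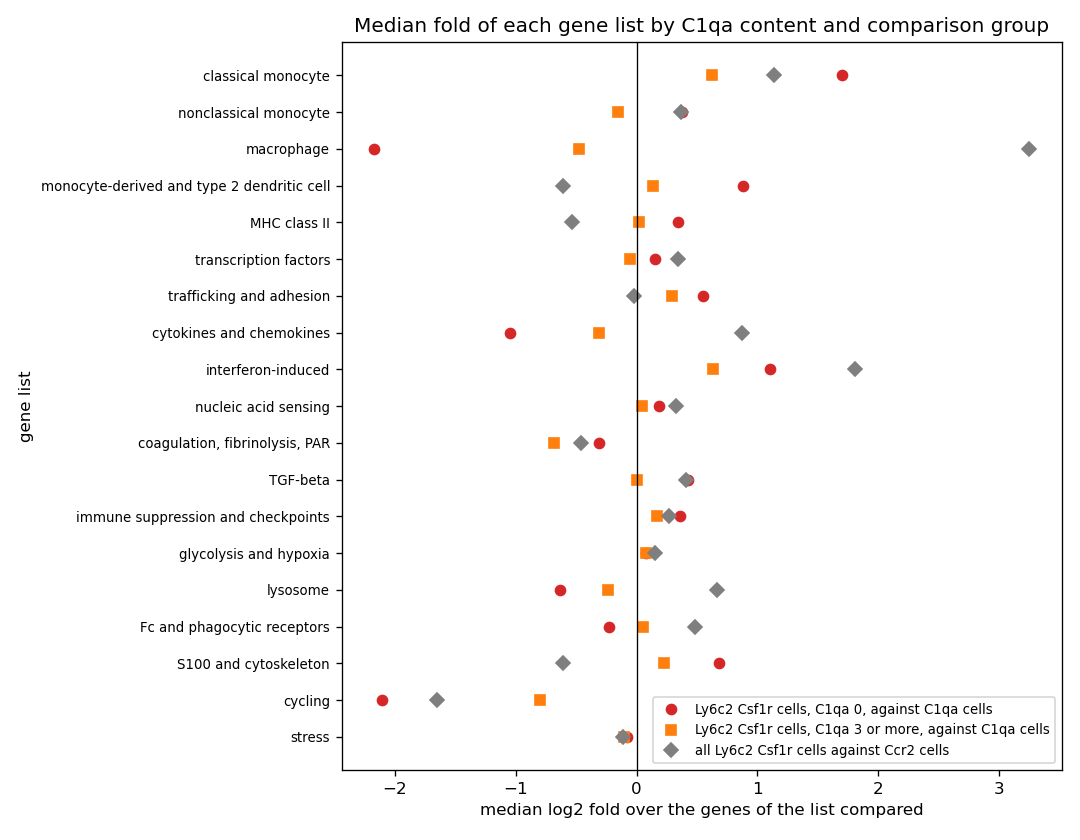
Median log2 fold (x axis) over the genes compared of each gene list (y axis) for members with no *C1qa* against C1qa cells (red circles), members with at least 3 UMIs of *C1qa* against C1qa cells (orange squares), and all members against Ccr2 cells (gray diamonds). The macrophage list lies at -2.17, -0.47 and 3.25, while the interferon-induced list is above 0 in all 3, at 1.10, 0.63 and 1.81. The *C1qa* limits of the groups favor these positions of the macrophage list.

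The Ccr2 cells, unlike the members, were limited to at most 2 UMIs of *C1qa*. Against them, 558 of 7950 genes were at least 2-fold higher in members (7.02%) and 507 at least 2-fold lower (6.38%). The median log2 fold was 0.05. Interferon-induced genes were higher here too, 27 of 33 compared, with a median log2 fold of 1.81. *Irf7* was at 407 CPM against 49.9 (8.15-fold), *Ly6a* at 637 against 59.7 (10.7-fold), and *Ifit3*, close to the C1qa cells, was 7.81-fold above the Ccr2 cells. Of 13 classical monocyte genes compared 7 were higher, among them *Plac8* (6.08-fold), *Ms4a4c* (5.49-fold) and *Chil3* (26.9-fold). *Ifitm6* and *Fn1* of this list were at least 2-fold lower, and 5 of the 13 lay below a log2 fold of 0. The list had a median log2 fold of 1.14 but summed to 9445 CPM in members against 12329 in Ccr2 cells. Of 17 macrophage genes 15 were higher, a direction that the *C1qa* limit of the Ccr2 cells favors, and 2, *Mrc1* and *Cd81*, were at least 2-fold lower.

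Other genes ran the opposite way. *F10* was at 149 CPM in Ccr2 cells, 1.76-fold above the members, and *F7* at 55.2 against 19.6. *Ear2*, of the eosinophil-associated ribonuclease family, whose near-identical copies could share reads, was at 689 CPM in Ccr2 cells and 19.9 in members. *Fn1*, encoding fibronectin, was at 2224 against 298 CPM, *Cd209a* at 378 against 78.3, and 9 of 10 cycling genes were lower in members (6.38% of all genes). All 10 MHC class II genes were below a log2 fold of 0, and 2 of them, *H2-DMa* and *H2-DMb2*, were 2-fold lower.

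Transcripts of other cell types were at low levels or concentrated in few members. Of 13 marker lists, the neutrophil list summed to 64.3 CPM in members (58.0 to 76.2 over runs) and 73.1 in C1qa cells (37.4 to 128), and its markers *Ly6g*, *Camp*, *Ngp*, *Retnlg* and *Mmp9* were at 0. All 4 eosinophil markers were at 0. The rule limited *S100a8*, *S100a9*, *Cd3e* and *Siglech* in members but not in C1qa cells. This favors low neutrophil, T cell and pDC sums in members, so these are given as a description. Fibroblast markers summed to 109 CPM against 26.6, with 276 of their 313 UMIs in 1 member, endothelial markers to 70.2 against 19.8, with 58 UMIs in 1 member without *Pecam1* and *Ly6c1*, and migratory DC markers to 91.9 against 52.4, with 80 of 263 in 1 member. The part of these cells in the results was not tested beyond leaving them out. Epithelial or tumor cell markers summed to 122 CPM against 241. The B cell and pDC lists, at 102 against 119 and at 182 against 179 CPM, consisted mostly of *Ighm* and of *Tcf4*, at like levels in both groups, and were not used to leave out cells. T cell (3.49 CPM against 3.15), NK cell (7.34 against 2.00), type 1 DC (76.5 against 64.9), basophil or mast cell (0.349 against 0.168) and erythroid markers (4.19 against 0.504) completed the lists. With the 26 members and 479 C1qa cells that had 3 or more UMIs of fibroblast, endothelial, epithelial, migratory DC, T, NK, neutrophil or erythroid markers (without 7 genes of these lists, such as *Wfdc18* and *Pecam1*) left out, a choice made after seeing the data, 237 genes were higher and 715 lower.

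The same rule in the CD4/CD8-selected matrix found 21 of 22806 cells, after 6082 cells with *Ly6c2* were removed for lacking *Csf1r*. CD8 T cells also express *Ly6c2*, but the type of the removed cells was not tested. The 21 cells were compared with 896 C1qa cells of that matrix. The number is small, the median log2 fold of all genes was 0.21, and 890 of 8375 genes were at least 2-fold higher (10.6%) and 551 lower (6.58%). Of 13 classical monocyte genes 9 were higher, and of 33 interferon-induced genes 15. Of 17 macrophage genes 10 were lower, a direction that the choice of the C1qa cells by *C1qa* favors. Of 7 nonclassical monocyte genes 4 were higher (*Treml4*, *Spn*, *Ear2*, *Itgal*) and 1 lower (*Cx3cr1*), with a median log2 fold of 1.13. *Ear2* had been lower in the CD11c-selected members. The matrices differ in both bead selection and tumor stage, which cannot be told apart here. *Plac8* was at 1609 CPM against 16.1, *Irf7* at 250 against 125, *Thbs1* at 878 against 178, and *F10*, with 29 UMIs in the 21 cells, at 90.6 against 11. Of 10 cycling genes 5 were higher. T cell markers summed to 222 CPM in these 21 cells against 108, with all 7 compared above a log2 fold of 0 and *Trac*, *Trbc2* and *Cd8b1* 2-fold higher, as was *Nkg7* of NK cells. Their part in these results was not tested.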

How the data were processed

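The deposited values are whole-number, unnormalized UMI counts, which the authors placed in 1 matrix for each bead selection, for 12 samples in all. Per the labels' processing notes, Cell Ranger 3.0.2 and the mm10 build were used. Any filter that the authors put on cells is not stated in what was read here. Symbols matched GENCODE M21 (GRCm38) for 30431 of 31053 genes (98.0%), and 4 listed symbols were not in the matrix and were not analysed here. Barcodes with under 200 detected genes were left out (341 of 11980 CD11c-selected barcodes). No doublet caller was run and no doublets were removed. The total UMI count of the kept CD11c-selected cells was 123642015, and between 13314063 and 24231244 per barcode run.

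UMI counts were summed over the cells of a group. Levels have exact Poisson, shares of cells exact Clopper-Pearson, and folds exact conditional intervals at 95%, and a share of 0 allows up to 3 counts. All cover counting error only. Since each matrix pools its samples with no map from barcodes to samples, no test was run. The fold computation was tested on simulated data. Named genes are those of the lists, the 15 highest and 15 lowest by fold with a UMI in 25% or more of the higher group's cells, and *Ly6c1*. Some genes of the lists are not reported here by name. *Ifitm1*, *Lyz1* and *Klrd1* were named after their values were seen. Python 3.11.15, numpy 2.4.6, scipy 1.17.1, pandas 2.3.3 and matplotlib 3.10.9 were used. The cells, the lists and the alternatives were chosen with earlier results of these data known.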

Additional observations from a re-analysis of the deposited data

How the results depend on the processing

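A *Ly6c2* minimum of 1 UMI gave 432 cells (3.71%) and of 3 UMIs 199 cells (1.71%). Without a minimum beyond 1 UMI per gene, 6027 genes were at least 2-fold higher than in C1qa cells, since a gene seen in few molecules passes through the added UMI. With a minimum of 500 UMIs, 109 were higher and 346 lower. Without members that had 3 or more UMIs of *C1qa*, 654 were higher. Leaving out 1 barcode run at a time gave 243 to 327 genes higher and 687 to 782 lower. A mean over cells gave 384 and 1014. Leaving out cells with UMIs of another type, chosen after seeing the data, gave 237 and 715, of which 187 and 593 were among the main calls. Of 756 values of 42 genes under alternatives, 575 stayed within the main interval. Another 181 lay outside it, in the same direction or not called, and 0 reversed a call. Many of the 42 were followed as the highest or lowest by fold in the same data, which favors 0 reversals. Calls did change. With a *Ly6c2* minimum of 1 UMI, the log2 fold of *S100a4* went from 1.15 to 0.995 and that of *Apoe* from -1.09 to -0.953, both under 2-fold. With a minimum of 3 UMIs, *Fcgr1* rose from 0.919 to 1.05, above 2-fold.

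No paired analysis was possible because the barcodes name no sample, and for the same reason nothing here compares genotypes. Depth limits genes under about 1 CPM in members, such as *F2rl1* and *Itga2b*, and the 19 cells of the middle *C1qa* tier.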

Other observations

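A few genes outside the lists marked small numbers of members, and they were named after their values were seen. *Ifitm1*, an interferon-induced transmembrane gene, was at 486 CPM in members with no *C1qa*, in 28.6% of these cells, at 555 in the middle tier and at 80.7 in members with at least 3 UMIs of *C1qa*, against 27.0 in C1qa cells. *Klrd1*, a receptor chain of NK cells, was at 81.6 and 204 CPM in the lower tiers, in 17.1% and 21.1% of the cells, while the NK cell markers *Ncr1* and *Gzma* were at 0 in members. *Lyz1*, a second lysozyme gene, was at 175 CPM in members with no *C1qa* although it was found in 5.71% of them, and at 20.3 at the highest tier.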
